A study of Rattus norvegicus with 8 samples.

Results

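The receptors described here are those through which the liver reads glucagon (Gcgr), adiponectin (Adipor1 and Adipor2), leptin (Lepr) and the interleukin-6 family of cytokines (Il6r, Il6st, Osmr and Lifr). A probe was taken as a member where the RefSeq accession printed for it on the array belongs to 1 of these 8 rat genes. All 8 genes were found, with 9 probes in all: 1 for each gene and 2 for Lepr, among 30367 probes and 15168 named genes. Liver RNA came from male rats aged 22 weeks and was read on single-colour Agilent arrays, 1 for each sample. The high-fat group (5 arrays) had eaten a high fat diet for 14 weeks and is labelled NAFLD, non-alcoholic fatty liver disease; the chow group (3 arrays) had eaten standard chow for the same time and is labelled control. The labels name no rat strain and no genetic change, and leave unsaid whether samples are separate animals, so the p-values measure only the spread between these samples. The series title sets the question in glucose and lipid metabolism of fatty liver.

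Glucagon is the pancreatic hormone of fasting. Its receptor is coupled to the Gs protein and raises cyclic AMP in hepatocytes, which drives glucose output. Adiponectin receptors are membrane proteins of the PAQR family that signal through AMP-activated kinase and carry ceramidase activity. The leptin receptor and the receptors of the interleukin-6 family belong to the class I cytokine receptors. Il6st encodes gp130, the shared signalling chain, which pairs with the interleukin-6 receptor, the oncostatin M receptor or the leukaemia inhibitory factor receptor and activates JAK kinases and STAT3. In hepatocytes this route is known for the acute-phase response.

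Every value below is a log2 signal relative to the 75th percentile of its own array, called the level, and a difference is the high-fat mean minus the chow mean. The arrays lay on 3 slides: slide 1 held high-fat arrays 1 and 4, slide 2 held high-fat arrays 2, 3 and 5, and slide 3 held all 3 chow arrays. Slide 1 was scanned on day 2 and the other slides on day 1, so no slide carried both diets and slide and diet cannot be told apart. High-fat arrays were brighter: 79.0% to 92.7% of their probes were well above background, against 66.9% to 71.7% on chow (two-sided exact permutation test, p = 0.0179, the lowest value possible with 56 splits, and 0.0179 after Benjamini-Hochberg adjustment over 3 array measures). All 10 hepatocyte markers, Alb and Ttr among them, were above background on all 8 arrays.

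No receptor gene differed between the diets beyond the spread of the arrays. Of the 8 member probes bright enough to be tested, 0 passed an adjusted p of 0.05 (limma, Benjamini-Hochberg over all tested probes), against 3.45% of all 25627 probes with a p-value (3.00% higher and 0.453% lower). At an unadjusted p under 0.05 the count was again 0 of 8, against 20.1% of all probes. The diets overlapped in all 8, while 16.9% of all kept probes did not overlap. The brighter Lepr probe, counted among the 8, was above background on 0 of 3 chow arrays and entered the test through the high-fat arrays. The number of arrays limits what this can show: all 8 of the 95% intervals included 0, and 7 of the 8 lay inside a 2-fold change in either direction. That second count was 4 with slide as a random block and 5 with a normexp background. Intervals including 0 numbered 6 with normexp, with scan day as a block and on scan day 1 alone. They numbered 5 for the high-fat arrays of slide 1 alone against chow and 7 with array weights. In whole tissue, fewer cells of a type and less RNA per cell cannot be told apart.

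**Figure D1:**
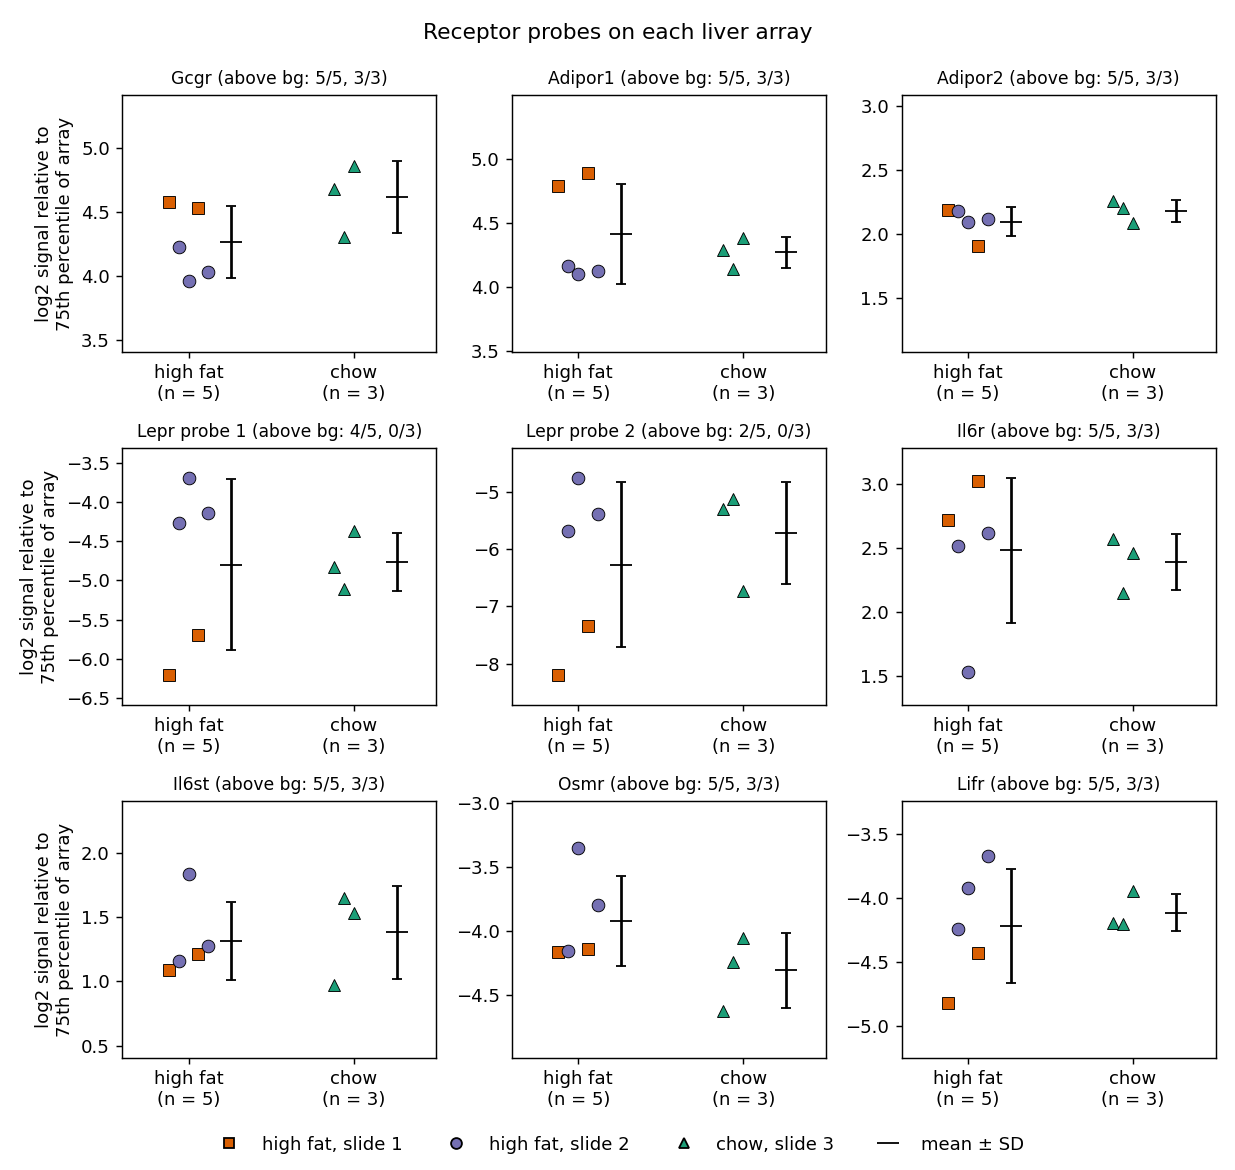
Level of each of the 9 receptor probes (y axis, log2 signal relative to the 75th percentile of the array) on the 5 high-fat and 3 chow arrays, coloured by slide; black bars are the mean ± SD of each diet, and titles give the number of arrays well above background. The y axes have different ranges. The diets overlap for every probe, and for Gcgr, Adipor1, Lepr, Il6r and Lifr the high-fat arrays of slide 1 stand apart from those of slide 2.

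Gcgr, the glucagon receptor, was read by 10 spots on each array and was above background on all 8 arrays. Its level was 4.58, 4.23, 3.96, 4.53 and 4.03 in the high-fat samples (1 to 5) and 4.68, 4.30 and 4.86 in the chow samples (1 to 3). High-fat arrays 2, 3 and 5 lay below all 3 chow arrays, while high-fat arrays 1 and 4 lay between chow arrays 2 and 1. The means were 4.26 ± 0.28 (SD, n = 5) and 4.61 ± 0.28 (SD, n = 3), a difference of −0.35 ± 0.21 (SE, limma adjusted p = 0.395). The 95% interval ran from −0.83 to 0.13, that is from 0.563 to 1.09 times the chow level. Its spots on 1 array had an SD of 0.048 to 0.091.

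Gcgr was the only member that was negative under all 21 other ways of processing, from −0.54 to −0.06. It passed in none of them (smallest limma adjusted p 0.0677, with scan day as a block). These settings are not independent, so their number does not measure how stable the sign is. Changing the filter on dim probes or taking 1 probe a gene leaves a probe's own value unchanged, and both uses of scan day gave −0.54. The arrays of scan day 1 alone gave −0.54, and slide 1 against chow gave −0.06. Among probes of the same brightness (the brightest of 10 equal groups, called bins here) the median difference was −0.24 over all arrays and −0.34 for slide 2 against chow. Under normexp, a model of the background, the median of all probes was −0.30 and Gcgr was −0.27, or 0.03 above it. The part of brightness in the Gcgr value was not tested.

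The adiponectin receptors were both bright and above background on all 8 arrays. Adipor1, the form with the higher affinity for globular adiponectin, had levels of 4.79, 4.17, 4.10, 4.89 and 4.13 in the high-fat samples (1 to 5) and of 4.29, 4.15 and 4.39 in the chow samples (1 to 3). The 2 high-fat arrays of slide 1 were above every chow array, and the other 3 lay near the lowest chow value. The difference in Adipor1 was 0.14 ± 0.23 (SE, limma adjusted p = 0.791), with a 95% interval from −0.39 to 0.67. Its sign was not stable: it was −0.14 on scan day 1 alone, −0.01 with array weights and 0.57 for the high-fat arrays of slide 1 alone (adjusted p = 0.0913). With a normexp background it was −0.03, or 0.27 above the median of all probes.

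Adipor2, the form linked to PPAR alpha signalling in liver, had the narrowest spread of the 9 probes. It read 2.19, 2.18, 2.09, 1.90 and 2.11 in the high-fat samples (1 to 5) and 2.26, 2.20 and 2.08 in the chow samples (1 to 3). Means of 2.09 ± 0.11 (SD, n = 5) and 2.18 ± 0.09 (SD, n = 3) gave a difference of −0.08 ± 0.13 (SE, limma adjusted p = 0.784), which turned positive, to 0.02, after quantile normalization and to 0.15 with a normexp background. The 95% interval from −0.39 to 0.22 corresponds to 0.763 to 1.17 times the chow level, the tightest bound among the receptors on this scaling.

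Lepr, the leptin receptor, was close to background. Both of its probes carry the same accession, and the labels of the array do not say which splice forms they read. The brighter probe had levels of −6.21, −4.27, −3.69, −5.70 and −4.14 in the high-fat samples (1 to 5) and −4.82, −5.10 and −4.37 in the chow samples (1 to 3). It was well above background on 4 of 5 high-fat arrays and on 0 of 3 chow arrays, which were dimmer throughout. This probe thus entered the test through the high-fat arrays. Against the chow floor, which takes on each array the higher of the probe's own level and the lowest signal above background, the high-fat mean was not higher, so no fold is given. The fitted difference, set against chow arrays not above background, was −0.04 ± 0.57 (SE, limma adjusted p = 0.982), with a 95% interval from −1.34 to 1.27.

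For this Lepr probe the high-fat arrays of slide 1 (−6.21 and −5.70) lay below those of slide 2 (−4.27 to −3.69). The dimmer Lepr probe was above background on high-fat arrays 3 and 5 only and was not kept for the test. It read −8.20, −5.69, −4.76, −7.34 and −5.38 in the high-fat samples (1 to 5) and −5.31, −5.12 and −6.73 in the chow samples (1 to 3). In both probes high-fat array 3 was highest and high-fat array 1 lowest. Without the filter on dim probes the second probe had a fitted difference, again against chow arrays not above background, of −0.55 ± 0.80 (SE, limma adjusted p = 0.775).

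Among the receptors of the interleukin-6 family, Il6r, the chain that binds interleukin-6, was read by 10 spots, whose SD on 1 array was 0.065 to 0.31. Its level was 2.72, 2.51, 1.53, 3.02 and 2.62 in the high-fat samples (1 to 5) and 2.57, 2.15 and 2.46 in the chow samples (1 to 3). High-fat array 3 was the lowest of all 8 arrays, and high-fat array 4 the highest. The difference was 0.09 ± 0.31 (SE, limma adjusted p = 0.911; 95% interval −0.63 to 0.81), and without high-fat array 3 it was 0.33 (adjusted p = 0.385). It was −0.17 on scan day 1 alone and 0.48 for slide 1 alone.

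Il6st, the shared chain gp130, had levels of 1.09, 1.16, 1.84, 1.21 and 1.28 in the high-fat samples (1 to 5) and 0.97, 1.65 and 1.53 in the chow samples (1 to 3). High-fat array 3, the lowest for Il6r, was the highest for Il6st. Means of 1.32 ± 0.30 (SD, n = 5) and 1.38 ± 0.36 (SD, n = 3) gave a difference of −0.07 ± 0.23 (SE, limma adjusted p = 0.906), with an interval from −0.59 to 0.46. After quantile normalization the value was 0.01.

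Osmr, the chain that pairs with gp130 to bind oncostatin M, was dim: its processed signal was 12.2 to 29.5 intensity units on chow and 40.5 to 103 on high-fat arrays, before scaling, though it counted as above background on all 8. Scaled levels were −4.16, −4.16, −3.35, −4.14 and −3.80 in the high-fat samples (1 to 5) and −4.62, −4.24 and −4.05 in the chow samples (1 to 3). Only high-fat arrays 3 and 5 were above every chow array. The difference was 0.39 ± 0.24 (SE, limma adjusted p = 0.407, 95% interval −0.15 to 0.92). It was positive under 19 of 21 other settings, some of which leave a probe's own value unchanged. It turned to −0.62 with a normexp background, or −0.32 relative to the median of all probes, and to −0.09 with normexp and quantile normalization together.

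Lifr, which pairs with gp130 to bind leukaemia inhibitory factor, was as dim. It read −4.82, −4.24, −3.92, −4.43 and −3.67 in the high-fat samples (1 to 5) and −4.20, −4.20 and −3.95 in the chow samples (1 to 3). The 3 chow values lay inside the high-fat range. A difference of −0.10 ± 0.26 (SE, limma adjusted p = 0.872; 95% interval −0.69 to 0.48) became 0.17 on scan day 1 alone and −0.51 for slide 1 alone.

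**Figure D2:**
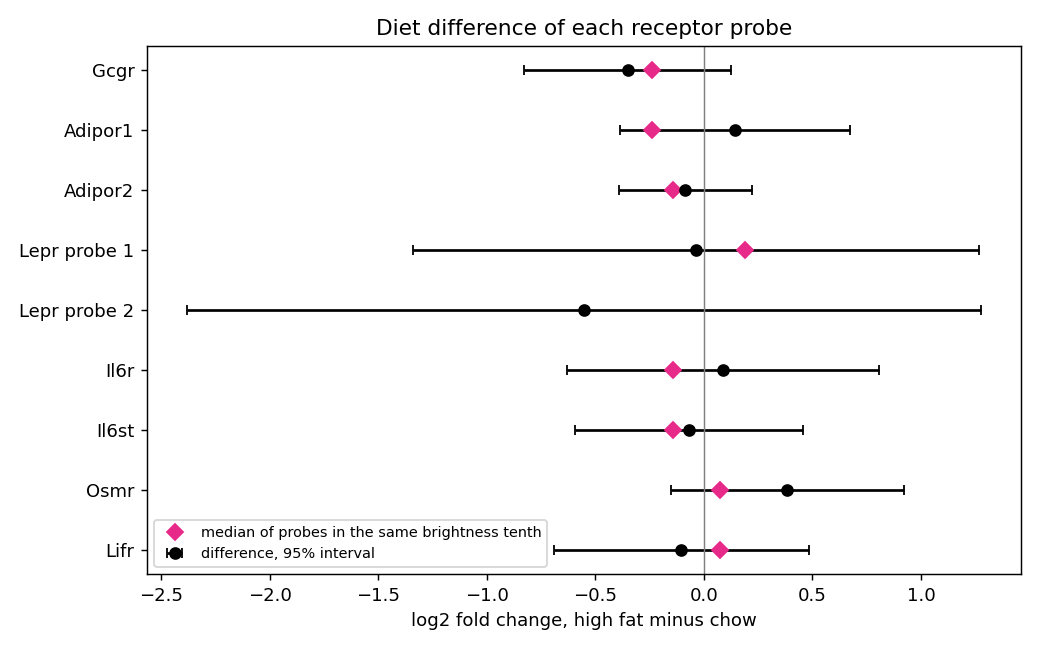
Difference between diets for each receptor probe (x axis, log2 fold change, high fat minus chow; black point with its 95% limma interval) beside the median difference of all probes in the same brightness bin (diamond; none for the second Lepr probe, which was not kept). Every interval includes 0, and those of Lepr are the widest.

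Within the high-fat group the receptors differed between slides, in directions that went with brightness. Slide 1 minus slide 2 was 0.49 for Gcgr, 0.71 for Adipor1 and 0.65 for Il6r, all bright, and −1.92 for the brighter Lepr probe, −0.68 for Lifr and −0.38 for Osmr, all dim. Adipor2 (−0.08) and Il6st (−0.27), bright as well, did not follow that order. In 6 of the 8 probes the difference between high-fat slides was larger than the difference between diets. The same tilt was present over all probes: the median of slide 1 minus slide 2 was −0.83 for the dimmest probes and 0.23 for the brightest (of 10 bins). With 2 arrays against 3 no exact test of this can pass 0.05, so these are values only. How much of each receptor's spread came with the slide was not tested.

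**Figure D3:**
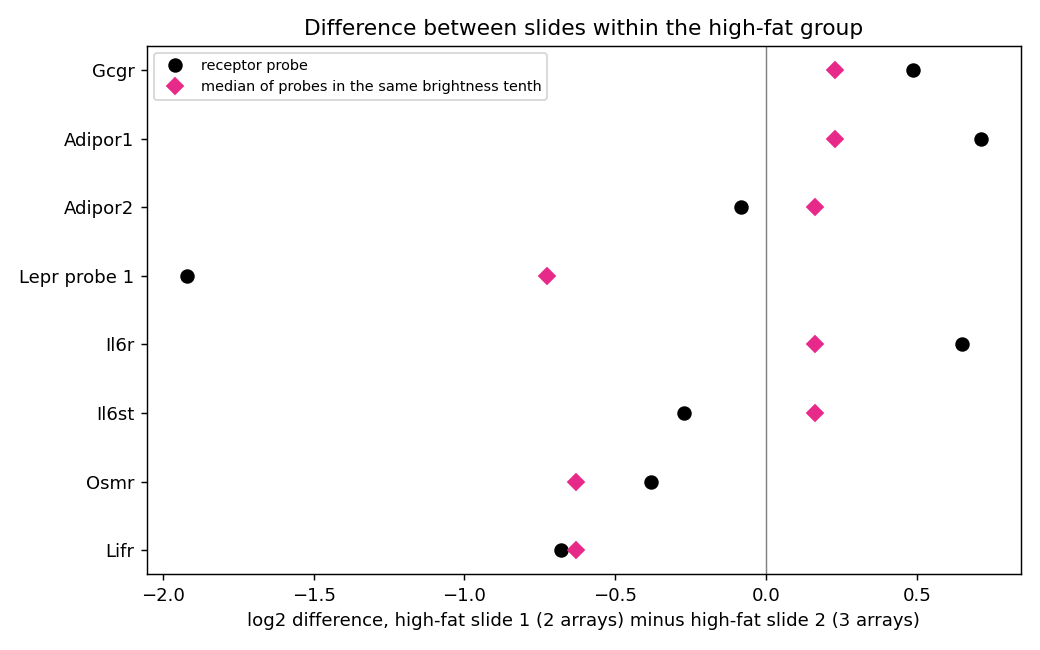
Difference between the 2 high-fat arrays of slide 1 and the 3 of slide 2 for each tested receptor probe (x axis, log2; black points) beside the median for probes of the same brightness bin (diamonds). Lepr, at −1.92, lies furthest from 0, and Gcgr, Adipor1 and Il6r lie above it.

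The hormones and cytokines themselves, and the proteins that pass their signals on, were also without a call. Named without regard to p were 19 ligands and relay genes, of which 17 were tested and 0 passed (limma). Osm, Prkaa2 and Il11ra1 had an unadjusted p under 0.05, as did 20.1% of all probes. Appl1, the adaptor of adiponectin receptors, was not analysed here, and Adipoq, adiponectin itself, a hormone of fat cells, was above background on 0 of 8 arrays. Lep, leptin, was above background on 3 of 5 high-fat arrays and 0 of 3 chow arrays, with a fitted difference of 0.72 ± 0.74 (SE, adjusted p = 0.644). It passed on scan day 1 alone (1.66, adjusted p = 0.0128) and with scan day as a block (0.0359), against chow arrays not above background in each. Lep entered the test through the high-fat arrays. Against the chow floor the mean of all high-fat arrays was not higher, so no fold is given.

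Of the gp130 ligands, Osm, oncostatin M, had levels of −3.30, −2.69, −2.96, −3.06 and −2.53 in the high-fat samples (1 to 5) and −3.43, −3.59 and −3.29 in the chow samples (1 to 3). Its diets overlapped only through high-fat array 1 and chow array 3, and the difference was 0.53 ± 0.20 (SE, limma adjusted p = 0.19). Osm passed on scan day 1 alone (0.71, adjusted p = 0.0423), with scan day as a block and with array weights. Under normexp it was −0.235 (adjusted p = 0.503), when the median of all probes was −0.30. Il6 differed by −0.04 ± 0.30 (SE, adjusted p = 0.96) and Lif by 0.36 ± 0.22 (SE, adjusted p = 0.409).

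Among further receptor chains of the family, Il11ra1, which binds interleukin-11, did not overlap between diets: it lay from −0.81 to −0.63 on the high-fat arrays and at −0.04, −0.50 and 0.57 on chow, a difference of −0.76 ± 0.23 (SE, limma adjusted p = 0.11). With array weights it passed (−0.80, limma adjusted p = 0.0362). Of all kept probes, 16.9% did not overlap between diets. Cntfr, the ciliary neurotrophic factor receptor, was above background on 3 high-fat and 0 chow arrays, and its fitted difference against such chow levels was −0.43 ± 0.89 (SE, limma adjusted p = 0.844).

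Relay genes next to the receptors gave differences of 0.06 ± 0.17 for Jak1, 0.02 ± 0.25 for Jak2 and 0.28 ± 0.28 for Stat3 (SE, limma adjusted p = 0.893, 0.973 and 0.65), and −0.16 ± 0.18 for Socs3, the STAT3-induced brake (0.688). Stat3 was 2.56 and 2.78 on the high-fat arrays of slide 1, against 1.68 to 1.85 on the other 6 arrays, and passed for slide 1 alone against chow (0.83, adjusted p = 0.04). Leprot, the leptin receptor overlapping transcript, differed by −0.30 ± 0.16 (SE, adjusted p = 0.331), and Adam17, the protease that sheds the interleukin-6 receptor, by 0.05 ± 0.19 (SE, adjusted p = 0.912). On the glucagon side, Gnas, which encodes the alpha subunit of Gs, Prkaca, the catalytic subunit of protein kinase A, and Creb1, a transcription factor it activates, had differences of 0.0036, −0.08 and 0.0056 (adjusted p = 0.994, 0.879 and 0.994). Prkaa1 and Prkaa2, the catalytic subunits of AMP-activated kinase, differed by 0.15 ± 0.21 and 0.47 ± 0.18 (SE, adjusted p = 0.748 and 0.203). Prkaa2 did not overlap between diets, like 16.9% of all kept probes. With a normexp background Prkaa1 was −0.53 and Prkaa2 −0.18, when the median of all probes was −0.30.

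Across 13 lists of pathway genes, with 1 probe for each gene, 2 of 173 genes passed (1.16%), against 1.80% of all genes with a symbol (1.25% higher and 0.547% lower), so the share was near the background. Gls2 came from the list of glucagon-responsive genes and Gipr from the list of receptors related to Gcgr. At an unadjusted p under 0.05 (limma) there were 34 of the 173 genes (19.7%), against 20.1% of all probes, so this share was near the background as well. Gls2, the liver glutaminase, a glucagon-responsive gene of amino acid use, was 4.66, 4.37, 4.40, 4.74 and 4.52 in the high-fat samples (1 to 5) and 5.39, 5.30 and 5.84 on chow. It fell by 0.98 on the log2 scale (SE 0.175, limma adjusted p = 0.0226), a call lost without high-fat array 2 or 5 or chow array 1 or 3 (adjusted p from 0.0542 to 0.0732). Treating the slide as a random block gave −0.96, which did not pass (adjusted p = 0.35).

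Gipr, the receptor for the gut hormone GIP and a relative of Gcgr, was −2.92, −3.14, −2.98, −2.91 and −3.62 in the high-fat samples (1 to 5) and −5.24, −4.67 and −3.99 on chow. Its fitted difference of 1.52 ± 0.29 (SE, limma adjusted p = 0.0294) passed, but Gipr was above background on only 1 of 3 chow arrays and entered the test through the high-fat arrays. With slide as a random block it was 1.54 and did not pass (adjusted p = 0.439). With a normexp background it was −0.01 (adjusted p = 0.98), or 0.29 above the median of all probes. Quantile normalization gave 1.39 (adjusted p = 0.0597). The call was kept in 3 of 8 fits with 1 array left out, and was lost without high-fat array 2, 3 or 4 or chow array 1 or 2 (adjusted p from 0.0618 to 0.092).

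Of 15 tested glucagon-responsive genes, 1 fell (Gls2) and 0 rose; 12 were negative, with a median of −0.45, against a median of −0.24 for the brightness bins of the same genes. That median was −0.22 without high-fat array 5, −0.21 without chow array 3 and −0.23 after quantile normalization, and with a normexp background it was −0.25, when all probes had −0.30. Among those that did not pass, and named after their values were seen, Sds, serine dehydratase, was at −1.86 (limma adjusted p = 0.0746), and Fgf21, a secreted hormone of fasting, was −1.14 (0.175). Of 27 genes that relay the glucagon signal, 0 passed (median 0.02), with 7 at an unadjusted p under 0.05 (limma). Over the 13 lists together the share at that limit was 19.7%, against 20.1% of all probes. Of 24 STAT3 targets, acute-phase proteins among them, 0 passed (3 at an unadjusted p under 0.05), and the median of −0.24 equalled the −0.24 of their brightness bins. Of 13 brakes on JAK and STAT signalling 0 passed (3 at an unadjusted p under 0.05; median 0.12), as did 0 of 11 relay genes of that route (3; median 0.02). Of 8 gp130 ligands 0 passed (2; median 0.18), and of 16 adiponectin relay genes 0 (1; median −0.05). Of 7 further genes of the PAQR family 0 passed (3 at an unadjusted p under 0.05). Their median was −0.33, against 0.01 for their brightness bins. It was −0.28 after quantile normalization and −0.47 with a normexp background, when all probes had −0.30.

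Other receptors of hepatocytes gave the same count: 0 of 27 passed (limma). At an unadjusted p under 0.05 there were 5, beside 20.1% of all probes. The median of these receptors was −0.23, against −0.03 for their brightness bins. It was −0.10 after quantile normalization and −0.27 with a normexp background, when all probes had −0.30. The smallest adjusted p among these receptors was that of Fgfr4, the FGF receptor of hepatocytes, named after its values were seen. Fgfr4 did not overlap between diets, like 16.9% of all kept probes, with −0.64 and a limma adjusted p of 0.0603. Over all genes with a symbol the median was −0.04. The 8 receptors had a median of −0.05, against −0.14 for their brightness bins.

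**Figure D4:**
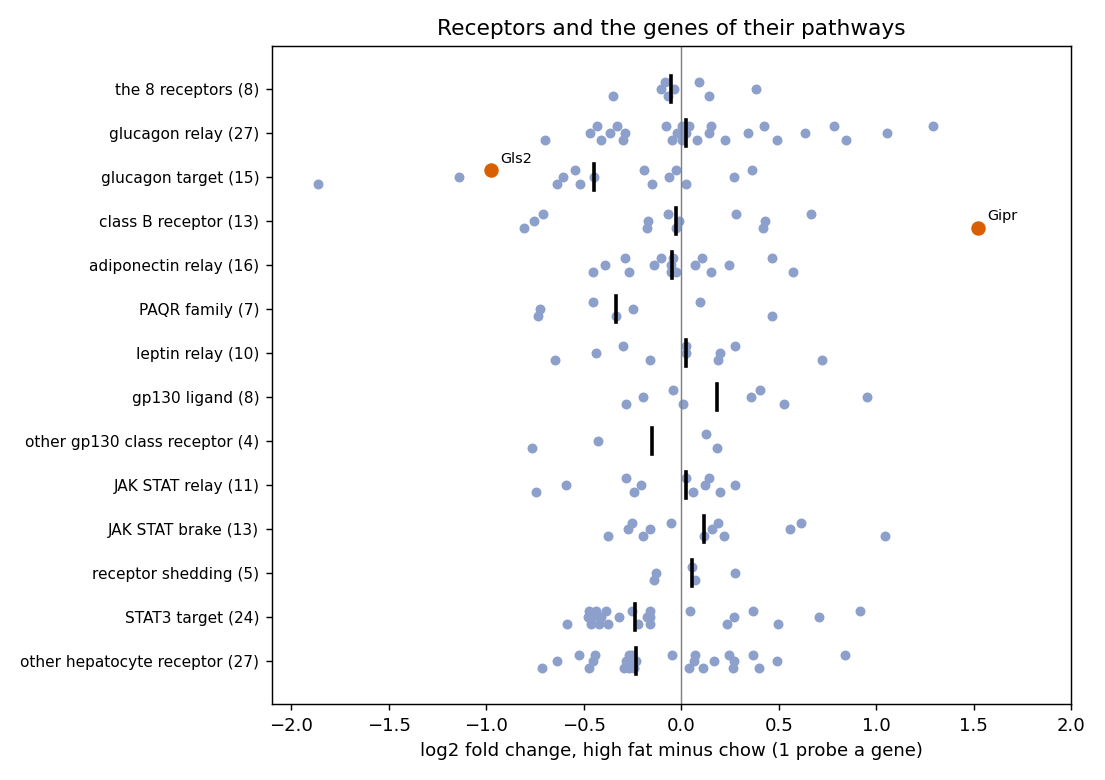
Log2 fold change (x axis, high fat minus chow, 1 probe a gene) of every tested gene in the receptor group and the 13 pathway lists (y axis, with the number tested); orange points passed an adjusted p of 0.05 and black bars are medians. Gls2 and Gipr are the 2 genes that passed, and the 8 receptors lie between −0.35 and 0.39.

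Over 10 lists of cell type markers the smallest exact permutation p was 0.0357, for hepatocyte markers (4.94 to 5.15 on high-fat and 5.09 to 5.46 on chow arrays; 0.357 after adjustment over the 10 lists, which a single list could not have passed even at the lowest possible p of 0.0179). All 10 hepatocyte markers were negative, with a median of −0.28, against −0.24 for their brightness bins. Stellate cell markers averaged −0.67 to −0.09 on high-fat and −0.34 to −0.04 on chow arrays (exact p = 0.268). Of 8 pancreas markers tested, 3 were negative and the median was 0.15, or −0.48 with a normexp background (exact p of the list 0.429). Only 1 of these 8 was above background on all 8 arrays. Gene by gene, 1 of the 8 pancreas markers and 1 of 7 cholangiocyte markers passed as higher (limma adjusted p under 0.05). The share over all genes with a symbol was 1.25%. Gcg, the glucagon gene, was above background on 2 of 5 high-fat and 1 of 3 chow arrays.

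The profile over the 8 arrays most like that of each receptor was sought among 10711 other genes above background on every array, by the root mean square difference of centred log2 levels. For Gcgr the nearest were Adck2 (0.042) and Dohh (0.050), for Adipor1 Arfgap3 (0.046) and Ctcf (0.055), and for Adipor2 Mpi (0.044) and Pip5k1c (0.057). Il6st lay nearest to Nup98 (0.050) and Gdap2 (0.095), Osmr to Alkbh8 (0.078) and Pla1a (0.11), Lifr to Hey2 (0.093) and Rnf180 (0.095), and Il6r to Pitpnm1 (0.12) and Ddc (0.13). The least close matches were those of Lepr, Defb4 (0.17) and Taar4 (0.19), searched among 10712 genes. A typical gene differed by 0.30 (the median for Adipor2) to 0.82 (for Lepr). Arrays of 1 slide share their slide in all of these profiles.

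The start regions of the receptor genes were searched for the letters of the sites that STAT3 and CREB bind. RefSeq windows on GRCr8 run from 250 bases before each start to 50 after it; 9 windows matched the 8 genes, since Gcgr has 2. On both strands, TTCNNNGAA, the STAT form, was in 0 of the 9 windows (8.87% of all 33469 windows hold it), and TGACGTCA, the full cyclic AMP site, in 0 (1.83%). Its shorter form, TGACG, which the full site contains, was in 1 window, that of Il6r (21.2% of all windows). This stretch is shown because it holds the single match, read on the opposite strand and set in capitals, 165 bases before the start, at chr2:177645350-177645394 on the minus strand.
Il6r: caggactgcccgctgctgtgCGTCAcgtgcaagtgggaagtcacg
A match of letters is a description of the sequence only.

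**Figure D5:**
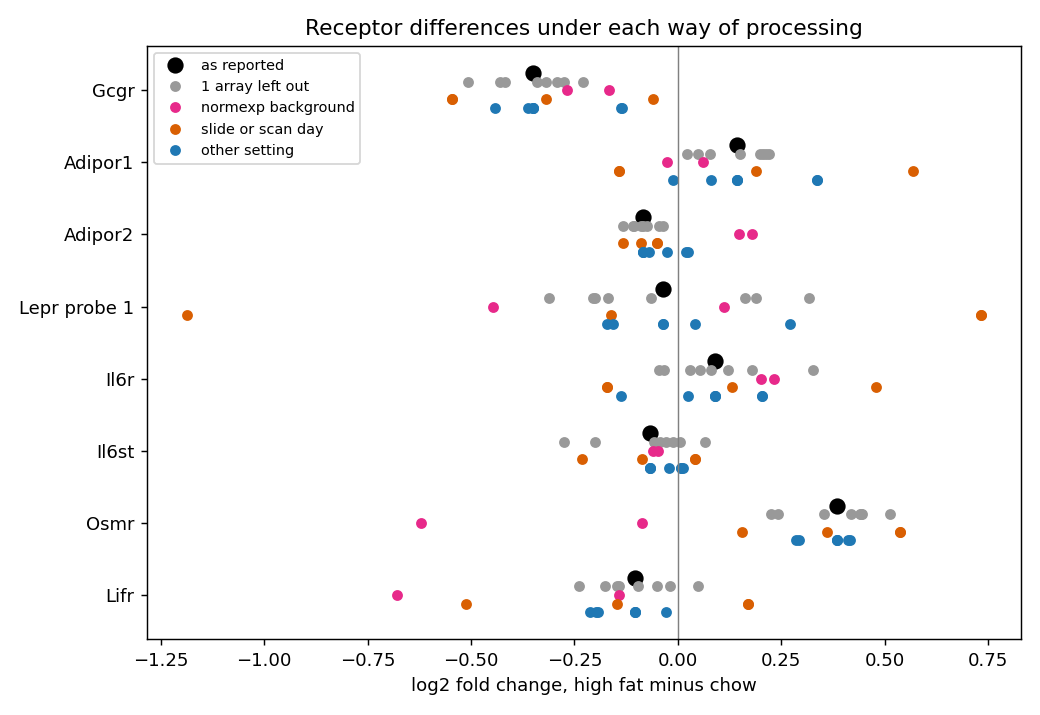
Log2 fold change (x axis, high fat minus chow) of the 8 tested receptor probes as reported (black) and under the 21 other settings, grouped by kind (colours); settings with equal values overlap. Gcgr stays below 0 throughout, Osmr falls below 0 with a normexp background, and the fitted values of Lepr, which was above background on 0 of 3 chow arrays, run from −1.19 to 0.73.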

How the data were processed

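Total RNA of 8 liver samples was labelled with Cy3 and read with Agilent Feature Extraction 11.0.1.1, per the submitters' processing notes. Per the file headers, the processed signal is a background-subtracted, spatially detrended intensity that was not scaled between arrays; the median signal and local background are raw intensities; and 0 or 1 columns, flags deposited under no other unit, mark spots above background or outlying. The authors deposited a table of log2 values whose quartiles were equal over arrays (correlation with the scaled signal of the same array 0.9993 to 0.9998); how it was made is not given in the sources used here.

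Here, outlier and control spots were dropped, spots of a probe averaged as log2, and the 75th percentile of each array subtracted. Probes stayed in if 3 or more of 8 arrays had a share of 0.5 or more of their spots well above background: 25629 of 30367, of which 25627 had a value on enough arrays for a p-value. Accessions were matched to RefSeq genes of GRCr8 (18005 probes named). Diets were compared probe by probe (limma 3.58.1, R 4.3.3, lmFit and eBayes, two-sided, Benjamini-Hochberg over all kept probes, threshold 0.05). A gene in a list is read by its kept probe with the highest mean. Values with 1 number for each array had an exact permutation test. No pair of arrays was identical, and 0 spots were saturated. The method was checked on simulated data with independent arrays, no slide effect and shifts larger than the receptor differences. That check cannot show how the fit handles the slides or small differences. Titles number replicates 1 to 3 in both diets, but same-numbered arrays deviated together at 0.035 to 0.061 only, so the numbers were not taken as pairs.

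Named genes are the 8 members, the 3 genes of each list and direction with the smallest adjusted p under 0.05, 19 ligands and relay genes whatever their p, and the 2 genes most alike to each member. Members, lists and tests were chosen with earlier results of these data known. Alternatives are given in the closing section.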

Additional observations from a re-analysis of the deposited data

Results flagged for a closer look

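Among 28 high-fat groups of 5 arrays examined (9 receptor probes and 19 other named genes), 2 had an array standing apart from the other 4 by more than Dixon's 95% limit of 0.71 of the range; chance alone flags about 5% of such groups. Il6st was 1.84 on high-fat array 3, against 1.09 to 1.28 on the other 4 (gap over range 0.753). Lif was −4.81 on high-fat array 1, against −4.32 to −4.15 on the other 4 (gap over range 0.735). Without high-fat array 3 the difference of Il6st was −0.20 (limma adjusted p = 0.623), and it passed neither with nor without that array.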

How the results depend on the processing

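Of the tested receptor probes 0 passed under any of 21 other settings. Over all probes, 768 were higher and 116 lower as reported. Higher counts were 122 (normexp background), 371 (above background on all 8 arrays), 1696 (array weights), 76 (slide as a random block), 3256 (scan day as a block) and 2757 (scan day 1 alone). Lower counts were 307 (quantile normalization), 14 (normexp), 1203 (normexp and quantile), 339 (the authors' table), 446 (no filter), 992 (array weights), 0 (slide block), 850 (scan day block), 402 (scan day 1) and 967 (slide 1 against chow). With the replicate block, which the numbers do not support as pairs, 0 were higher and 0 lower. Leaving out 1 array gave 384 to 807 higher and 16 to 91 lower. Receptor values that moved by more than the spread between arrays were, for slide 1 alone against chow, Gcgr −0.060, Adipor1 0.57, the brighter Lepr probe −1.19 and Lifr −0.51; with normexp, Adipor2 0.15, Osmr −0.62 and Lifr −0.68; with normexp and quantile normalization, Adipor2 0.18 and Osmr −0.087; and with quantile normalization Adipor2 0.025. Gipr reversed to −0.0090 with normexp. The cause was not tested. Gls2 lost its call for slide 1 alone (−0.81, adjusted p = 0.0792), and Gipr with the authors' table (1.39, 0.0552) and for slide 1 alone (1.72, 0.051), beside the losses given above. Cntfr passed for slide 1 alone (−2.33, adjusted p = 0.0096), where no array of either diet was above background. Its levels on high-fat arrays 1 and 4 were −7.39 and −7.57, under the lowest signal above background (−6.13 and −6.15). With 0 of 3 chow arrays above background as well, that pass sets background against background. Low signal over background limits Lepr, Osmr and Lifr.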
